A study of Rattus norvegicus with 18 samples.

Results

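The effect of a medium dose of plantain on the obese rat liver was described from 6 of the 18 bulk RNA-seq libraries of the series. The medium-dose group held 3 liver libraries from male obese rats fed plantain, and the obese control held 3 liver libraries from male obese rats given water; all were labelled 18 weeks old. The labels used here do not give the strain, how obesity was brought about, the form of the plantain or the amount of each dose. They do not say whether the 3 libraries of a group are 3 animals, so a p-value covers only the spread between libraries, which may be technical. The genes described are those with at least 1 FPKM (a read level corrected for gene length and library depth) in at least 3 of the 18 libraries, which were 11945 of the 33657 genes in the table. The other 12 libraries, with 3 in each group, came from obese rats fed low-dose plantain, high-dose plantain or the lipase inhibitor orlistat, and from healthy rats given water. They entered the same fit, and only those of the low dose, the high dose and the healthy control are compared with the medium dose.

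The liver makes fatty acids, packs them into triglyceride and lipoproteins, makes cholesterol and turns it into bile acids, and releases glucose between meals. Its secretory load is carried by chaperones of the endoplasmic reticulum (ER), whose genes are induced together when unfolded proteins accumulate there. Much of hepatic metabolism also follows the circadian clock, a loop in which CLOCK and BMAL1 activate the genes of their own repressors and of the output factors DBP, TEF and HLF.

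The whole reads recovered from the FPKM came to between 19.1 and 21.9 M (mega) in medium-dose libraries and between 19.2 and 24.3 M in obese control libraries. The total by which the values had been scaled was 0.998 to 1.023 times the recovered total in medium-dose libraries, against 0.971 to 0.980 times in obese control libraries. This factor moved with the group. The recovered reads do not carry it, and limma-voom on them gave a median log2 difference over all genes of 0.0597, against 0.0016 on the FPKM. Which scale is nearer the true one was not tested. Each direction was therefore also computed on TPM (values scaled to the same sum in every library) and after quantile normalization. Albumin took 11.5 to 12.1% of the reads in medium-dose libraries and 11.97 to 12.48% in obese control libraries, and the 15 hepatocyte markers measured were all tested.

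At an adjusted p under 0.05 (limma on log2(FPKM + 1), adjusted over all genes tested), 5003 of 11945 genes changed, which is 41.9%. Of these, 2599 genes rose (21.8% of those tested) and 2404 fell (20.1%). Most changes were small: 49 genes rose and 90 fell by more than 1 on the log2 scale, and the median SE of a difference was 0.069. The median difference over all genes was 0.0016, with quartiles of -0.16 and 0.16. For 5874 genes (49.2%) the 3 medium-dose values lay all above or all below the 3 obese control values. The balance of the 2 directions depended on the scaling. On TPM 3748 genes rose and 1440 fell, with the median difference at 0.083, and after quantile normalization 2666 rose and 2304 fell. In limma-voom on the recovered reads 3286 rose and 1811 fell.

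**Figure D1:**
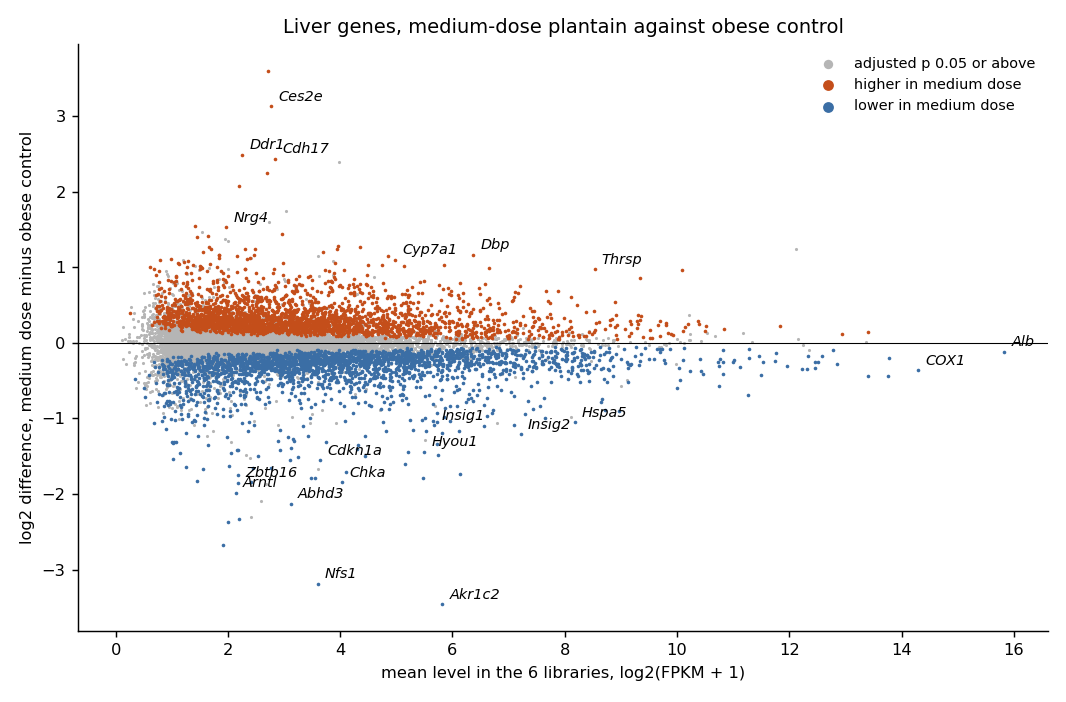
Each point is a gene tested, with its mean level in the 3 medium-dose and 3 obese control libraries as log2(FPKM + 1) on the horizontal axis and the log2 difference, medium dose minus obese control, on the vertical axis. Orange genes rose and blue genes fell at an adjusted p under 0.05; Ces2e lies far up at 3.13 and Akr1c2 far down at -3.46, while most genes lie within 1 of the zero line.

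Among genes with a symbol of their own, the largest rise was that of Ces2e (ENSRNOG00000011635, chromosome 19, 85606 to 100424), a carboxylesterase gene, which had 11.9, 10.9 and 11.01 FPKM in medium-dose livers, against 0.4796, 0.3797 and 0.341 FPKM in obese control livers. All 3 medium-dose values lay far above those of the obese control, 28.2-fold on the group means, with a log2 difference of 3.13 ± 0.070 (SE) and an adjusted p of 5.32e-14. Ddr1 (ENSRNOG00000057125, chromosome 20, 3552929 to 3575780), a receptor tyrosine kinase for collagen, had 6.702, 7.39 and 7.19 FPKM in medium-dose livers, against 0.381, 0.369 and 0.573 FPKM in obese control livers. Cdh17 (ENSRNOG00000015562, chromosome 5, 25391115 to 25443718), a cadherin named for its place in liver and intestine, had 10.6, 11.4 and 11.04 FPKM in medium-dose livers, against 1.21, 1.14 and 1.3005 FPKM in obese control livers. Both genes were low in every obese control library, with differences of 2.49 ± 0.077 and 2.44 ± 0.050 and adjusted p of 1.63e-12 and 1.94e-14. The 12 largest named rises and falls were picked among genes without overlap between groups, so their lack of overlap is not a result. Nat8f3, of an N-acetyltransferase family, rose by 1.55 ± 0.11, and Nrg4, a ligand of the EGF family secreted by metabolic tissues, rose by 1.53 ± 0.11. Gda, a guanine deaminase, rose by 1.27 ± 0.060. Slc2a5, the fructose transporter, had 5.32, 6.03 and 6.42 FPKM in medium-dose livers, against 1.81, 1.59 and 2.38 FPKM in obese control livers, and rose by 1.25 ± 0.085. The clock gene Per3 (1.25), the output factor Hlf (1.20), the glycogen phosphatase Epm2a (1.20) and the actin-binding protein gene Cttn (1.27) were also among the 12 largest named rises. Reads of Ces2e and Nat8f3 may be shared with near-identical copies of their families.

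The largest difference of all belonged to LOC103690108 (ENSRNOG00000047706, chromosome 20, 3791407 to 3794027), annotated as a class I histocompatibility antigen. It had 12.1, 10.996 and 10.5 FPKM in medium-dose livers and was listed at 0 in all 3 obese control livers. It was also listed at or near 0 in the low dose and the healthy control, with means of 0.03905 and 0.0595 FPKM, and averaged 8.19 FPKM in the high dose. Ddr1 lies on the same chromosome within 1 Mb of it in the file's coordinates. Genes of this family share long stretches of sequence, so its value is uncertain.

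The largest fall was that of Akr1c2 (ENSRNOG00000029844, chromosome 17, 69388335 to 69404341), an aldo-keto reductase that acts on steroids, which had 7.88, 8.93 and 8.53 FPKM in medium-dose livers, against 101, 105 and 102 FPKM in obese control livers. The groups lay far apart, with means 12.2-fold lower in the medium dose, at -3.46 ± 0.066 and an adjusted p of 9.24e-15; reads may be shared with close family members. Abhd3 (ENSRNOG00000029370), a phospholipase, had 2.29, 2.14 and 2.29 FPKM in medium-dose livers, against 13.6, 12.4 and 13.6 FPKM in obese control livers. Zbtb16 (ENSRNOG00000029980), a zinc finger transcription factor also called PLZF, had 0.936, 0.975 and 0.969 FPKM in medium-dose livers, against 6.21, 5.87 and 6.17 FPKM in obese control livers. Chka, choline kinase, the first enzyme of phosphatidylcholine synthesis by the CDP-choline route, had 5.84, 6.58 and 5.92 FPKM in medium-dose livers, against 24.998, 23.8 and 24.9 FPKM in obese control livers. For these 3 genes the differences were -2.13 ± 0.074, -1.85 ± 0.054 and -1.85 ± 0.050. Slc34a2, a sodium-phosphate cotransporter, fell by 1.79 ± 0.054. Nfs1, the mitochondrial cysteine desulfurase of iron-sulfur cluster assembly, had 1.61, 1.08 and 1.003 FPKM in medium-dose livers, against 33.2, 18.3 and 11.4 FPKM in obese control livers. Its obese control values were spread widely, and the difference of -3.19 ± 0.58 carries the largest SE of the named genes. Nfs1 also varied widely within the healthy control, at 16.4, 0.851 and 1.48 FPKM. Its means were 17.5 FPKM at the low dose and 1.09 FPKM at the high dose. The source of this variation was not tested. Arntl and Prlr, also among the 12 largest falls, are described with the clock and growth hormone genes. The others were short noncoding genes: the microRNA gene Mir291b (-1.79), a U6 small nuclear RNA gene RF00026 (ENSRNOG00000057423, -1.75, whose call was lost with a pseudocount of 0.1) and the mitochondrial tRNA genes AY172581.15 (-2.67) and AY172581.5 (-1.83). The read count behind a short gene is small for its FPKM, and AY172581.15 was listed at 0 in all 3 medium-dose libraries, so its fitted difference depends on the added 1 FPKM. The largest fall of a gene with no symbol was -2.37, at a locus on chromosome 2 annotated with an RNase H domain.

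**Figure D2:**
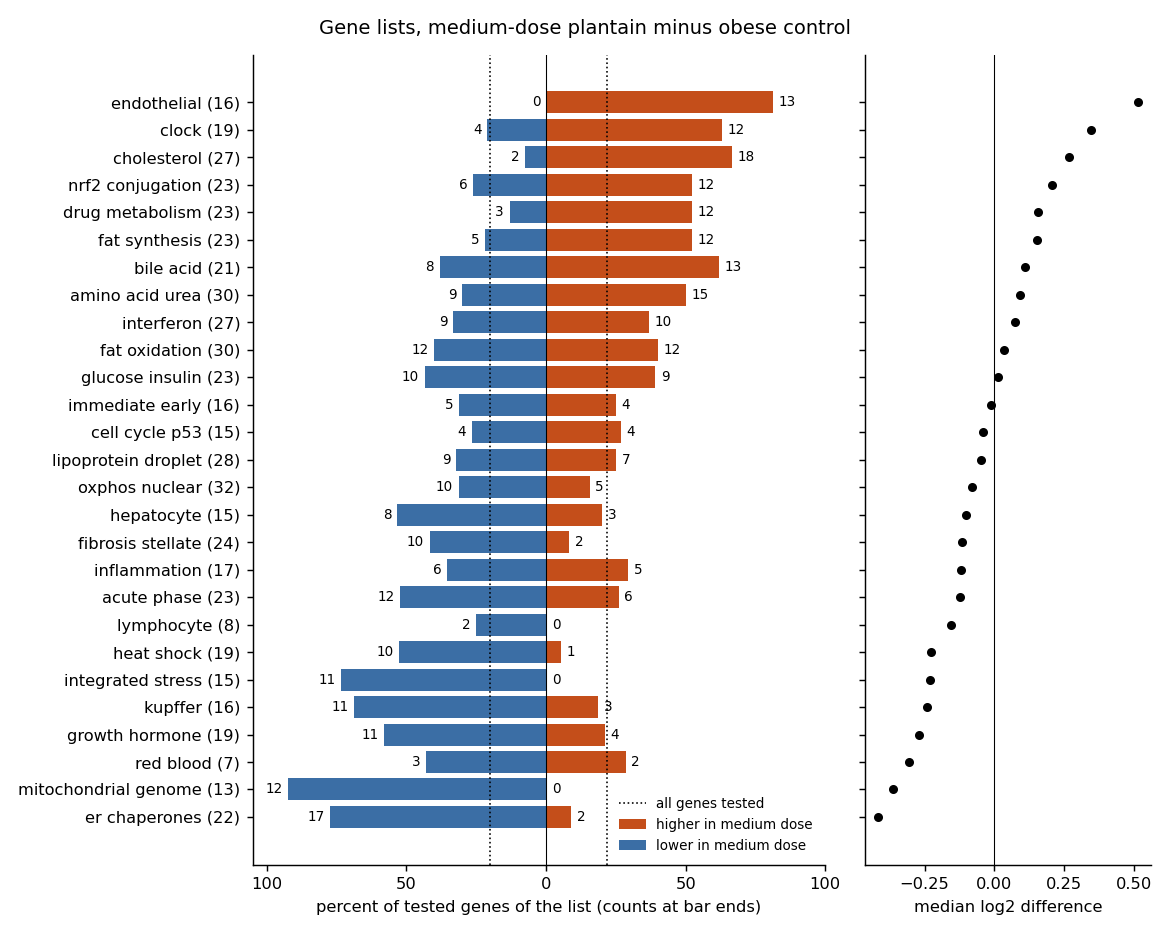
Each row is a gene list with the number of its members tested. Bars to the right give the percent of those members that rose in medium-dose livers and bars to the left the percent that fell, with counts at the bar ends, dotted lines at the 21.8% and 20.1% of all genes tested, and points for the list's median log2 difference. The endothelial, clock and cholesterol lists lie at the top and the ER chaperone and mitochondrial genome lists at the bottom.

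Fatty acid synthesis genes were mostly higher in medium-dose livers. Of 23 members tested, 12 rose, 5 fell and 6 did not pass, with a median difference of 0.15, against 0.0016 over all genes. Thrsp, a nuclear protein that accompanies lipogenesis, had 487, 491 and 492 FPKM in medium-dose livers, against 247, 249 and 248 FPKM in obese control livers. Acaca, acetyl-CoA carboxylase, which commits carbon to fatty acids, had 6.24, 6.39 and 6.63 FPKM in medium-dose livers, against 3.297, 3.23 and 3.16 FPKM in obese control livers. For both genes the groups lay apart with little spread between libraries, with means 1.97-fold and 1.99-fold higher in the medium dose, at 0.98 ± 0.014 and 0.81 ± 0.037. Fatty acid synthase, Fasn, had 7.99, 9.46 and 8.996 FPKM in medium-dose livers, against 5.49, 5.05 and 5.55 FPKM in obese control livers, a difference of 0.62 ± 0.052. Lpin2, a phosphatidic acid phosphatase (0.95), the delta-6 desaturase Fads2 (0.53) and the lipogenic transcription factor Srebf1 (0.42) rose as well, and the delta-9 desaturase Scd rose little (0.16).

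Among the 5 members that fell were genes of triglyceride assembly and elongation: the phosphatidic acid phosphatase Lpin1 (-0.46), the glycerol-3-phosphate acyltransferase Gpam (-0.41), the elongase Elovl5 (-0.37) and the acyltransferase Agpat2 (-0.13). Agpat2 lost its call on TPM (-0.033), in limma-voom (-0.067), after quantile normalization (-0.031), and without medium-dose replicate 2 (-0.10) or obese control replicate 1 (-0.11). Plin2, which coats lipid droplets and whose level follows stored fat, had 31.4, 35.1 and 33.9 FPKM in medium-dose livers, against 67.6, 71.3 and 71.6 FPKM in obese control livers. The medium-dose values were low throughout, with a mean 2.096-fold lower, a difference of -1.05 ± 0.036 and an adjusted p of 5.35e-12.

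**Figure D3:**
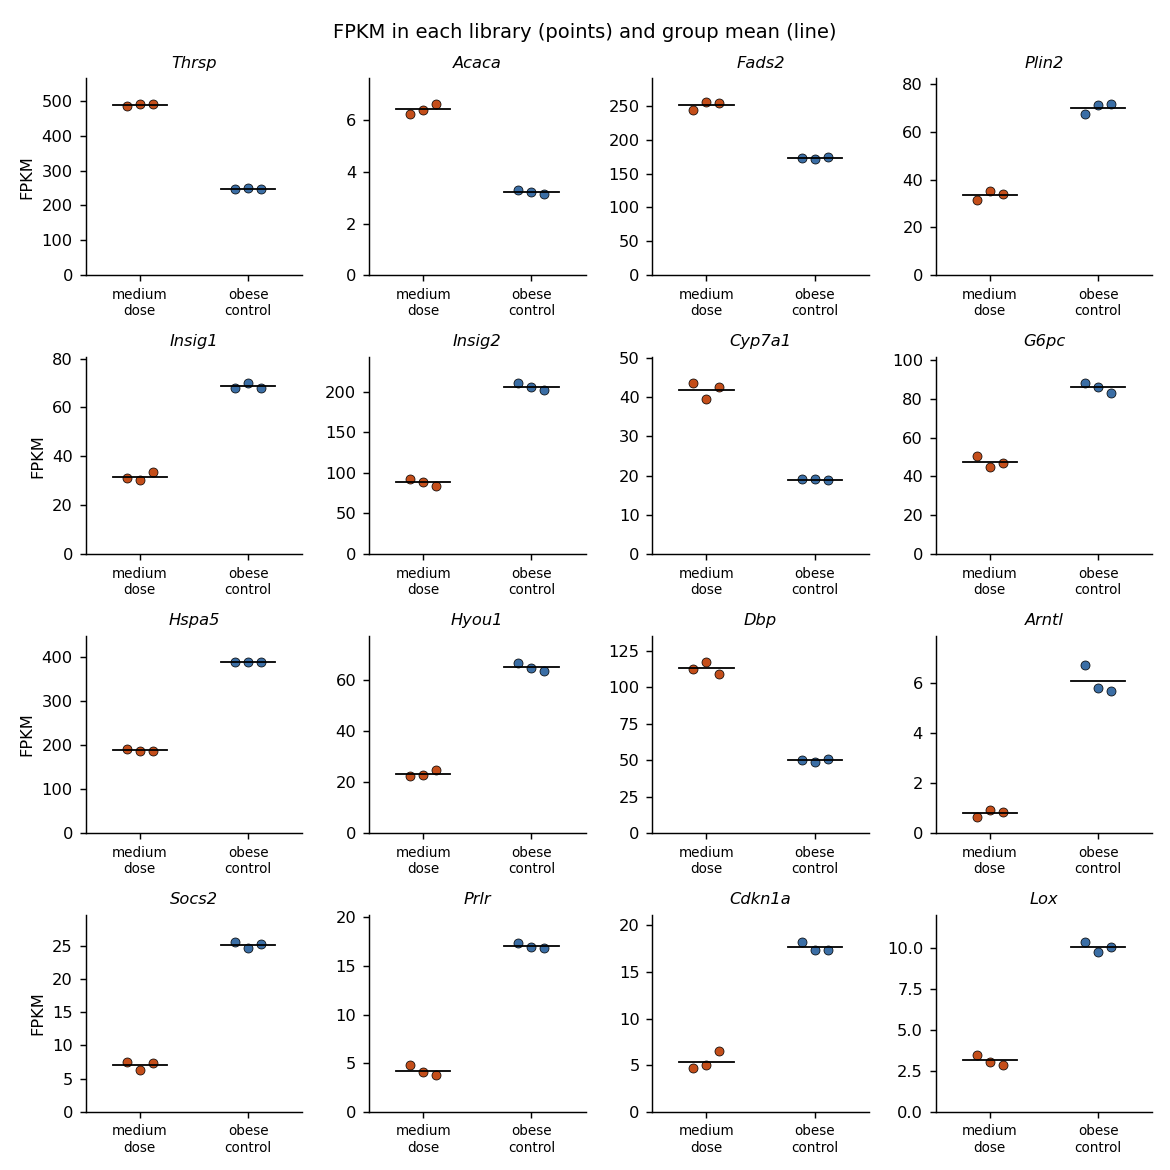
Each panel shows the FPKM of a gene in each library (points) and the group mean (line), with the 3 medium-dose libraries on the left and the 3 obese control libraries on the right; each vertical axis starts at 0. Thrsp, Acaca, Fads2, Cyp7a1 and Dbp lie higher in the medium dose and the other 11 genes lower, with no overlap between groups in any panel.

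In cholesterol synthesis and uptake, 18 of 27 genes rose and 2 fell, with a median difference of 0.27. Stard4, which encodes a sterol carrier, had 11.7, 11.5 and 11.5 FPKM in medium-dose livers, against 6.71, 5.87 and 6.59 FPKM in obese control livers. The squalene synthase gene Fdft1 had 28.9, 27.1 and 27.9 FPKM in medium-dose livers, against 18.2, 17.8 and 18.3 FPKM in obese control livers. For both genes the groups did not overlap, and the differences were 0.77 ± 0.040 and 0.60 ± 0.032. The 2 genes that fell both encode INSIG proteins, which hold the SREBP precursors in the ER when sterols are plentiful. Insig1 had 31.2, 30.2 and 33.8 FPKM in medium-dose livers, against 67.8, 69.9 and 68.1 FPKM in obese control livers, and Insig2 had 92.8, 89.2 and 84.2 FPKM in medium-dose livers, against 210.0, 206 and 202 FPKM in obese control livers. Both were low in every medium-dose library, with means 2.16-fold and 2.32-fold lower, at -1.09 ± 0.035 and -1.21 ± 0.030.

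All 21 bile acid genes tested passed the threshold, against 41.9% of all genes tested, 13 higher and 8 lower, with a median of 0.11. On TPM, after quantile normalization and in limma-voom 13 rose and 6 fell, so the full count held on the FPKM scale only. Cyp7a1, which catalyses the first step from cholesterol to bile acids, had 43.6, 39.5 and 42.7 FPKM in medium-dose livers, against 19.03, 19.1 and 18.8 FPKM in obese control livers. The medium-dose values were high throughout, with a mean 2.21-fold higher, at 1.10 ± 0.032 and an adjusted p of 8.37e-13. The conjugation and side-chain enzymes Slc27a5 (0.34) and Amacr (0.33) rose less. Cyp8b1, which sets the share of cholic acid, fell by 0.31, and Nr0b2, the repressor SHP that acts on Cyp7a1, fell by 0.41. The canalicular exporters Abcc2, for conjugated organic anions (-0.67), and Abcb4, for phosphatidylcholine (-0.60), were lower.

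Fatty acid oxidation genes split evenly, with 12 of 30 higher and 12 lower, and a median of 0.035; on TPM 16 rose and 8 fell. Cpt1a, the carnitine palmitoyltransferase that admits long-chain fatty acids to mitochondria, had 114, 119 and 117 FPKM in medium-dose livers, against 78.6, 77.2 and 79.1 FPKM in obese control livers. Medium-dose values exceeded all obese control values, at 0.57 ± 0.021. The peroxisomal enzyme Ehhadh (0.66) and the acyl-CoA synthetase Acsl1 (0.29) also rose. Crot, the carnitine octanoyltransferase of peroxisomes, had 75.03, 71.7 and 71.5 FPKM in medium-dose livers, against 137, 137 and 133 FPKM in obese control livers, and fell by 0.89 ± 0.032. In the lipoprotein and droplet list 7 of 28 rose and 9 fell, a balance that turned to 13 and 6 on TPM. Mttp, which loads lipid onto apolipoprotein B, rose by 0.29, while Apoa5 (-0.33), Apoa1 (-0.30) and Apoc3 (-0.18) were lower. Apoc3 lost its call after quantile normalization (-0.033).

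The glucose and insulin list was balanced, with 9 higher and 10 lower of 23, with a median of 0.012. G6pc, glucose-6-phosphatase, which releases free glucose, had 50.6, 45.1 and 46.9 FPKM in medium-dose livers, against 88.4, 85.9 and 83.2 FPKM in obese control livers. Igfbp1, an insulin-repressed binding protein for insulin-like growth factors, had 18.6, 18.1 and 16.4 FPKM in medium-dose livers, against 33.7, 32.8 and 32.9 FPKM in obese control livers. The hepatokine Tsku had 34.4, 34.8 and 36.7 FPKM in medium-dose livers, against 70.02, 68.9 and 66.003 FPKM in obese control livers. All 3 genes were without overlap between groups, with differences of -0.84 ± 0.034, -0.87 ± 0.041 and -0.93 ± 0.028. Pck1, the cytosolic PEP carboxykinase, had 869.7, 887 and 883 FPKM in medium-dose livers, against 1266, 1208 and 1233 FPKM in obese control livers, a difference of -0.49 ± 0.015. Slc2a2, the hepatic glucose transporter GLUT2, had 175, 166 and 169.5 FPKM in medium-dose livers, against 104, 105 and 109 FPKM in obese control livers, and rose by 0.68 ± 0.022.

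Amino acid breakdown and urea genes were more often higher, with 15 of 30 up and 9 down and a median of 0.093. Gpt, alanine aminotransferase, had 51.4, 54.9 and 55.2 FPKM in medium-dose livers, against 29.5, 30.1 and 31.6 FPKM in obese control livers, and rose by 0.80 ± 0.037. Cps1, the entry enzyme of the urea cycle (0.37), Ahcy (0.37) and Bhmt (0.29) of the methionine cycle also rose, while Tat, tyrosine aminotransferase, fell by 0.35. Of 23 drug metabolism genes, 12 rose and 3 fell. Por, the reductase that supplies electrons to all microsomal cytochromes P450, had 174, 193 and 184 FPKM in medium-dose livers, against 109, 107 and 109 FPKM in obese control livers. It rose by 0.76 ± 0.028, together with Cyp2b2 (0.85), Cyp3a18 (0.68) and Cyp1a2 (0.55). The members that fell were Cyp2c7 (-0.57), the dioxin receptor gene Ahr (-0.51) and, by very little, Cyp2c23 (-0.055), whose sign turned on TPM and in limma-voom and whose call was lost after quantile normalization (-0.049). Of 23 antioxidant and conjugation genes, 12 rose and 6 fell, with Ugt2b17 at 1.02, the glutathione synthesis subunit Gclm at 0.66 and the sulfotransferase Sult1a1 at 0.28, against Gstm1 at -0.27 and the epoxide hydrolase Ephx1 at -0.19. Members of the P450, Ugt and Gst families are similar enough in sequence that reads may be split between them.

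ER chaperone and folding genes fell as a group. Of 22 members tested, 17 fell, 2 rose and 3 did not pass; the median was -0.42 and stayed between -0.42 and -0.33 under the other scalings. Hspa5, the central ER chaperone BiP, had 192, 186 and 186 FPKM in medium-dose livers, against 389.6, 390.3 and 389 FPKM in obese control livers. The medium-dose values were low with almost no spread, with a mean 2.07-fold lower, a difference of -1.05 ± 0.015 and an adjusted p of 4.19e-16. Hyou1, a large chaperone that exchanges nucleotide on BiP, had 22.3, 22.9 and 24.9 FPKM in medium-dose livers, against 66.8, 64.9 and 63.4 FPKM in obese control livers. Manf, a small ER protein that is secreted when ER calcium falls, had 89.4, 83.5 and 85.1 FPKM in medium-dose livers, against 189, 177 and 187 FPKM in obese control livers. Both fell without overlap, at -1.44 ± 0.039 and -1.09 ± 0.035. Creld2, an ER protein induced under folding stress, had 17.1, 15.1 and 17.5 FPKM in medium-dose livers, against 52.7, 51.4 and 52.8 FPKM in obese control livers, a difference of -1.61 ± 0.077. The disulfide isomerase Pdia4 (-0.71), the BiP cofactor Sdf2l1 (-0.75), the HSP90 of the ER, Hsp90b1 (-0.51), and the lectin chaperone Calr (-0.44) fell less. The 2 that rose, Edem1 (0.43) and Herpud1 (0.16), both act in the removal of misfolded proteins. Xbp1, a transcription factor of the response, averaged 127 ± 3.67 FPKM in medium-dose livers and 130.3 ± 3.17 FPKM in obese control livers (SD, n = 3 each), a difference of -0.035 ± 0.029 with an adjusted p of 0.363.

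Many promoters of ER chaperone genes carry an ER stress response element, a CCAAT box and a CCACG motif set 9 bases apart. CCAAT, 9 bases of any kind and CCACG were searched as 1 motif on both strands in the 250 bases before the gene start in RefSeq (GRCr8), whose promoters matched 19 of the 22 list members by symbol or, for older symbols, by RefSeq synonym. It was found in 8 of the 19 promoters, against 15 of the 8317 promoters of tested genes (0.180%). The promoter of Hspa5 is shown whole, and the other 7 with 20 bases on either side of the outermost matches where the window allows, because they carry the element in genes that fell and in genes that did not pass. Capitals mark the matches, read 5′ to 3′ on the gene's strand; a match on the opposite strand begins with CGTGG.
Hspa5, chr3:38452766-38453015 (+): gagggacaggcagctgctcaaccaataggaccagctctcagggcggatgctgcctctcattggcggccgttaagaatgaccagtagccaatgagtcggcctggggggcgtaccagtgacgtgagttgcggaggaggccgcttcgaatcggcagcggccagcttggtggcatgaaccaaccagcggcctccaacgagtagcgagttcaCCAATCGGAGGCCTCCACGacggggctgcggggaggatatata
Creld2, chr7:121789219-121789277 (+): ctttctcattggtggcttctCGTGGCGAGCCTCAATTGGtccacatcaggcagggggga
Hsp90b1, chr7:23012327-23012489 (-): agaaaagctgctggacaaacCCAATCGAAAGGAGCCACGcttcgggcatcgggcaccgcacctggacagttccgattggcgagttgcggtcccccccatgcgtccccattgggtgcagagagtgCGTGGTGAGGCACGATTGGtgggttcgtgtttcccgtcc
Calr, chr19:40213117-40213173 (+): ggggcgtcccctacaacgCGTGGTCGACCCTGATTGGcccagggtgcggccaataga
Dnajc3, chr15:102432514-102432572 (+): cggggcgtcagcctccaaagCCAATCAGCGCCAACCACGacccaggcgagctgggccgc
Canx, chr10:35158049-35158107 (-): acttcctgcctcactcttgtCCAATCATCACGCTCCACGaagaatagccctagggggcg
Xbp1, chr14:84604538-84604596 (+): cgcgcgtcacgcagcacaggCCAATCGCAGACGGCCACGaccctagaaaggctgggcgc
Derl3, chr20:12766581-12766639 (-): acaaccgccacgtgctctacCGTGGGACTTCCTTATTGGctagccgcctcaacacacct
Of these 8 genes, Hspa5, Creld2, Hsp90b1, Calr and the cochaperone gene Dnajc3 (-0.25) fell. Canx, calnexin (-0.036, adjusted p 0.153), Xbp1 and Derl3, of the Derlin family (-0.43, adjusted p 0.365), did not pass. Derl3 averaged only 0.463 FPKM in medium-dose livers and 0.990 FPKM in obese control livers, with an SE of 0.36, so its direction cannot be judged. Canx passed as a fall without medium-dose replicate 1 (-0.057) and as a rise on TPM (0.057, adjusted p 0.0339), so its direction depended on the scaling.

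Stress genes outside the ER list were also lower. In the integrated stress response 11 of 15 fell and none rose, with a median of -0.23. The serine synthesis enzyme Phgdh had 0.909, 1.02 and 0.941 FPKM in medium-dose livers, against 1.84, 1.53 and 1.94 FPKM in obese control livers, a difference of -0.50 ± 0.10. Atf5, a transcription factor of this response with a high level in liver, had 302, 289.7 and 298 FPKM in medium-dose livers, against 550.2, 552 and 542 FPKM in obese control livers, and fell by 0.88 ± 0.020. Sesn2 (-0.45), the asparagine synthetase Asns (-0.42), the amino acid transporter subunit Slc3a2 (-0.36), Shmt2 (-0.21) and the central factor Atf4 (-0.15) fell less, and Atf4 lost its call on TPM (-0.056). Of 19 cytosolic and mitochondrial heat shock genes, 10 fell and 1 rose. Hspa8, the constitutive cytosolic HSP70, had 121, 119 and 123 FPKM in medium-dose livers, against 224, 227 and 215 FPKM in obese control livers, a difference of -0.87 ± 0.039, and Hsph1 (-0.78), Stip1 (-0.57), Fkbp4 (-0.45) and Hsp90ab1 (-0.36) fell with it. The member that rose was Hspd1, the mitochondrial chaperonin (0.13), and without obese control replicate 3 there were 2.

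The activators of the clock were lower and its output factors higher in medium-dose livers. Of 19 clock genes, 12 rose and 4 fell, with a median of 0.35. Arntl (ENSRNOG00000014448), which encodes BMAL1, had 0.616, 0.912 and 0.826 FPKM in medium-dose livers, against 6.71, 5.78 and 5.67 FPKM in obese control livers. Npas2, which can take the place of CLOCK, had 0.102, 0.156 and 0.2298 FPKM in medium-dose livers, against 2.62, 2.48 and 2.76 FPKM in obese control livers. Both were several times lower in every medium-dose library than in any obese control library, at -1.98 ± 0.078 and -1.64 ± 0.086. Clock itself fell (-0.37 ± 0.042) with the repressor Per1 (-0.53 ± 0.044), and these 4 genes were all that fell. Dbp, a PAR bZIP factor driven directly by the clock, had 112, 117 and 109.5 FPKM in medium-dose livers, against 50.3, 48.4 and 50.9 FPKM in obese control livers. Tef had 26.4, 27.1 and 27.7 FPKM in medium-dose livers, against 15.1, 15.7 and 15.9 FPKM in obese control livers. Both rose without overlap, by 1.17 ± 0.027 and 0.76 ± 0.031, as did Per3, with 6.45, 7.31 and 6.73 FPKM in medium-dose livers, against 2.22, 2.34 and 2.31 FPKM in obese control livers. Cry1, a repressor, rose by 0.34, and Nr1d1, the repressor of Arntl known as REV-ERB alpha, was at -0.16 with an adjusted p of 0.0502; it passed with a minimum of 5 FPKM (-0.16), without medium-dose replicate 3 (-0.21) or without obese control replicate 3 (-0.19). These genes swing with the hour of day, the labels used here do not say at what hour tissue was taken, and the part of that hour in the result was not tested. Of the 17 clock promoters with a sequence, 3 held the E-box CACGTG (8.60% of promoters of tested genes) and 1 held a D-box (TTACGTAA or TTATGTAA, 0.625%), on both strands of the same 250 bases. The ROR element, AGGTCA preceded by AANT or ATNT (0.168%), was found in 1 promoter, that of Arntl, which RefSeq lists under its newer name Bmal1. That stretch is shown because REV-ERB and ROR proteins are known to act on Arntl through such elements, with the match in capitals.
Arntl, chr1:176766289-176766327 (+): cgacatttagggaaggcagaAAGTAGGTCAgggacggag
The promoters of Cry1 and Hlf were not searched.

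Growth hormone and prolactin signalling genes were lower on the whole, with 11 of 19 lower, 4 higher and a median of -0.27. Socs2, a STAT5 target that damps growth hormone signals, had 7.43, 6.23 and 7.35 FPKM in medium-dose livers, against 25.5, 24.7 and 25.3 FPKM in obese control livers. Cish, of the same suppressor family, had 3.88, 3.504 and 3.68 FPKM in medium-dose livers, against 9.91, 8.85 and 9.64 FPKM in obese control livers. Prlr, the prolactin receptor, had 4.78, 4.13 and 3.77 FPKM in medium-dose livers, against 17.4, 16.96 and 16.9 FPKM in obese control livers. None of the 3 overlapped, and the differences were -1.71 ± 0.074, -1.16 ± 0.052 and -1.79 ± 0.063. Cux2, a repressor of male-biased genes known from mouse liver, had 0.208, 0.171 and 0.228 FPKM in medium-dose livers, against 2.04, 1.91 and 2.03 FPKM in obese control livers, a difference of -1.32 ± 0.075, and Srd5a1, steroid 5-alpha reductase, had 64.9, 64.3 and 65.8 FPKM in medium-dose livers, against 131, 127 and 126 FPKM in obese control livers, a difference of -0.97 ± 0.023. The growth hormone receptor Ghr (0.29), Socs3 (0.34) and the male-specific genes Cyp2c11 (0.25) and Hsd3b5 (0.30) were the 4 that rose.

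Acute phase genes showed 12 lower and 6 higher of 23, a split that became 6 and 6 after quantile normalization. Ftl1, ferritin light chain, had 1863, 1904 and 1895 FPKM in medium-dose livers, against 3134, 2988 and 3039 FPKM in obese control livers, a difference of -0.69 ± 0.024. The fibrinogen gene Fga (-0.32), the heme carrier Hpx (-0.26) and Serpina3n (-0.22) were lower, and Itih4 (0.16) and haptoglobin, Hp (0.11), were higher; the calls of Fga, Hpx and Hp were lost after quantile normalization. Interferon-induced genes divided into 10 higher and 9 lower of 27, led by the ISG15 protease Usp18 (0.69) and Stat2 (0.34) upward and by the immunoproteasome subunit Psmb9 (-0.50), Ifi27 (-0.25) and Bst2 (-0.22) downward. Of 17 inflammation genes, 5 rose, namely the cytokine Il1a (0.57), the adhesion molecule Icam1 (0.39), Myd88 (0.33), Il1r1 (0.23) and Nfkb1 (0.17), while 6 fell, among them the chemokines Ccl6 (-0.50) and Cxcl12 (-0.17). The call of Cxcl12 was lost on TPM (-0.078).

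Of 15 cell cycle and p53 genes tested, 4 rose and 4 fell, which is 53.3% called, against 41.9% of all genes tested. Cdkn1a, the cyclin-dependent kinase inhibitor p21, had 4.67, 4.99 and 6.48 FPKM in medium-dose livers, against 18.2, 17.4 and 17.3 FPKM in obese control livers. Gadd45g, a stress-induced growth arrest gene, had 31.5, 35.02 and 33.6 FPKM in medium-dose livers, against 75.5, 76.5 and 79.9 FPKM in obese control livers. Both fell without overlap, at -1.56 ± 0.086 and -1.19 ± 0.049, and Gadd45b (-0.81) and Ccnd1, cyclin D1 (-0.24), were the others that fell, the call of Ccnd1 being lost on TPM (-0.15). Tyms (0.44), Sesn1 (0.29), Ccng1 (0.17) and Gadd45a (0.17) rose. Ccng1 did not pass without medium-dose replicate 1 (0.12), obese control replicate 2 (0.17) or obese control replicate 3 (0.13), and Gadd45a did not pass without any one medium-dose library or without obese control replicate 2 or 3 (0.12 to 0.17), nor with no filter on low values (0.17). Of 16 immediate early genes, Fos (0.42), Junb (0.41), Egr1 (0.17) and Jun (0.17) rose, and Myc (-0.57), Dusp1 (-0.48), Ier2 (-0.36), Zfp36 (-0.35) and Btg2 (-0.19) fell. Btg2 lost its call on TPM (-0.11), in limma-voom (-0.15), with no filter on low values (-0.19), and without medium-dose replicate 2 or 3 or obese control replicate 1 or 3 (-0.18 to -0.15).

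Markers of liver cell types moved in different directions, and in bulk tissue fewer cells of a type and less RNA per cell cannot be told apart. Of 16 sinusoidal and vascular endothelial markers, 13 rose and none fell, with a median of 0.52 that was 0.51 or higher under every scaling. Their summed level was 158.5 to 165.4 FPKM in medium-dose livers and 114.4 to 116.5 FPKM in obese control livers. Stab2, a scavenger receptor of sinusoidal endothelium, had 4.02, 3.83 and 3.75 FPKM in medium-dose livers, against 1.804, 1.64 and 1.67 FPKM in obese control livers. Kdr, the VEGF receptor, had 11.01, 11.6 and 11.5 FPKM in medium-dose livers, against 6.03, 6.19 and 6.65 FPKM in obese control livers. Neither gene overlapped, and the differences were 0.85 ± 0.040 and 0.76 ± 0.037; Lyve1 (0.76), Fcgr2b (0.75) and Tek (0.64) rose alike, whereas Clec4g (-0.11), Egfl7 (-0.022) and Vwf (0.022) did not pass.

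Of 16 markers of Kupffer cells, the resident macrophages of the liver, 11 fell and 3 rose, with a median of -0.24. The summed level was 330.4 to 340.5 FPKM in medium-dose livers and 373.9 to 385.4 FPKM in obese control livers. Cd5l, a macrophage-secreted scavenger protein, had 15.97, 15.4 and 15.2 FPKM in medium-dose livers, against 27.01, 29.6 and 28.01 FPKM in obese control livers. Cd163, the haptoglobin-hemoglobin receptor, had 3.45, 3.22 and 3.39 FPKM in medium-dose livers, against 6.03, 6.58 and 5.902 FPKM in obese control livers. Both fell without overlap, at -0.82 ± 0.043 and -0.72 ± 0.043, with Marco (-0.86) and Vsig4 (-0.54). Clec4f, which marks Kupffer cells in rodents, was at -0.055 and did not pass. The 3 that rose were Mrc1 (0.66), Cd14 (0.36) and Msr1 (0.35), of which Mrc1 is also made by sinusoidal endothelium.

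**Figure D4:**
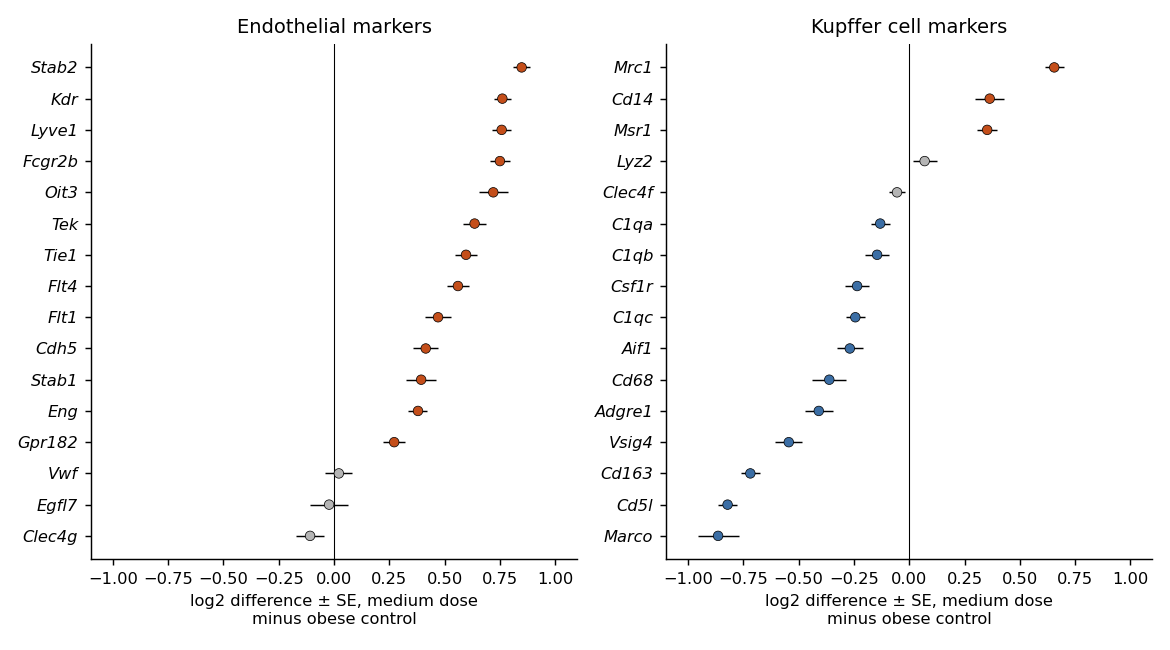
Points give the log2 difference, medium dose minus obese control, of 16 endothelial markers (left) and 16 Kupffer cell markers (right), with bars of 1 SE; orange genes rose, blue genes fell and grey genes did not pass the adjusted p of 0.05. Of the endothelial markers 13 are orange and none blue, while 11 Kupffer cell markers are blue and 3 orange.

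Of 24 stellate cell and matrix genes, 10 fell and 2 rose, with a median of -0.12. Of all genes tested 41.9% changed, with 20.1% lower and 21.8% higher. On TPM 7 members of the list fell and 3 rose, with a median of -0.042. After quantile normalization 9 fell and 2 rose (median -0.13), and in limma-voom 9 fell and 3 rose (-0.082). The size of the fall in this list thus depended on the scaling. Lox, the lysyl oxidase that crosslinks collagen, had 3.49, 3.07 and 2.87 FPKM in medium-dose livers, against 10.3, 9.76 and 10.1 FPKM in obese control livers. Every medium-dose value was far below every obese control value, with a mean 3.204-fold lower, at -1.42 ± 0.065. Lrat, which esterifies retinol in stellate cells (-0.50), Pdgfrb (-0.45), fibronectin, Fn1 (-0.37), and Col3a1 (-0.28) fell, and Col1a1 (0.18) and Col6a1 (0.17) rose. Col1a1 lost its call without medium-dose replicate 2 or 3 or obese control replicate 1 or 2 (0.16 to 0.18), and Col6a1 without medium-dose replicate 3 or obese control replicate 2 or 3 (0.15 to 0.16). The summed level was 459.6 to 490.8 FPKM in medium-dose livers and 579.8 to 586.5 FPKM in obese control livers. Hepatocyte markers gave 8 lower and 3 higher of 15, but 5 and 5 on TPM and 2 lower and 5 higher after quantile normalization. Of the other lists, 2 of 8 lymphocyte genes fell, Cd3g (-0.55) and Cd74 (-0.19), and both neutrophil genes tested did not pass. Epcam (0.18) rose in the bile duct list, in which 3 genes were tested, while Krt7, Krt19 and Sox9 were under 1 FPKM in all 6 libraries. Epcam lost its call without medium-dose replicate 1 or 3 or obese control replicate 2 (each 0.15). In the red blood cell list Hbb (0.50) and Slc4a1 (0.34) rose and Ahsp (-0.81), Hba-a2 (-0.39) and Alas2 (-0.30) fell, of 7 tested. The Hbb entry was low, at a mean of 3.65 FPKM in medium-dose livers and 2.28 FPKM in obese control livers. Hba-a2 averaged 299 and 390 FPKM in the same order. Summed over the list, the level was 1116 to 1371 FPKM in medium-dose livers and 1374 to 1657 FPKM in obese control livers. Calls were lost by Hbb without medium-dose replicate 1 (0.39) or obese control replicate 3 (0.44), by Slc4a1 without medium-dose replicate 3 (0.26), by Alas2 on TPM (-0.25) and without medium-dose replicate 2 (-0.27) or obese control replicate 3 (-0.28), and by Hba-a2 on TPM (-0.29) and without medium-dose replicate 1 or 2 or obese control replicate 1 (-0.34 to -0.32). The fat cell genes Adipoq, Lep, Plin1 and Retn were listed at 0 in all 6 libraries, Lpl fell (-0.28), and of the pancreatic genes Cela1 was tested and fell (-0.36).

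Transcripts of the mitochondrial genome were lower. Of 13 protein-coding genes, 12 fell and none rose, with a median of -0.36. COX1, a subunit of cytochrome c oxidase, had 18823, 16695 and 17181 FPKM in medium-dose livers, against 22694, 23301 and 21729 FPKM in obese control livers. ATP6, of ATP synthase, had 13075, 11168 and 11037 FPKM in medium-dose livers, against 15741, 16683 and 15226 FPKM in obese control livers. Neither overlapped, and the differences were -0.36 ± 0.043 and -0.44 ± 0.073, with COX2 (-0.60), COX3 (-0.44) and ND5 (-0.37) alike. Mitochondrial transcripts took 6.26 to 6.95% of the reads in medium-dose libraries and 7.86 to 8.38% in obese control libraries. Of 32 nuclear genes of oxidative phosphorylation, 5 rose and 10 fell, which is 46.9% called, against 41.9% of all genes tested. On TPM 13 rose and 3 fell, so the direction of this list depended on the scaling. Uqcrc2 (0.34), Ndufs1 (0.31), Sdha (0.24), Cox8a (0.11) and Atp5f1a (0.093) were the 5 that rose, and Cox7a2 (-0.41) had the smallest p of those that fell. Without obese control replicate 1 or 3 the number that fell was 6, and Cox8a lost its call without medium-dose replicate 1 (0.082), obese control replicate 1 (0.091) or obese control replicate 2 (0.11). Among the most abundant transcripts, transferrin, Tf, rose by 0.15, while albumin, Alb (-0.12), and transthyretin, Ttr (-0.20), fell. After quantile normalization Alb and COX1, which hold the top ranks in all 6 libraries, had no difference and Ttr had the opposite sign. Alb lost its call on TPM (-0.023), with no filter on low values (-0.12), and without medium-dose replicate 2 or 3 or obese control replicate 1 or 2 (-0.11 to -0.10).

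The medium dose was then set against the mean of the low and high doses. The contrast asks where the effect of the middle dose departs from the doses around it, since the obese control is common to all. Of 11945 genes, 2096 differed (17.5%), 987 higher (8.26%) and 1109 lower (9.28%), and for 11.6% the medium-dose values did not overlap those of the other doses. Ddr1 and Cdh17 were highest at the medium dose. Ddr1 averaged 0.441 ± 0.114 FPKM in the obese control, 1.35 ± 0.113 FPKM at the low dose, 7.09 ± 0.352 FPKM at the medium dose and 2.51 ± 0.187 FPKM at the high dose (SD, n = 3 each). Cdh17 averaged 1.22 ± 0.0805, 3.18 ± 0.2398, 11.04 ± 0.394 and 4.59 ± 0.253 FPKM in the same order. All medium-dose values lay above the 6 values of the other doses, which was a condition of their choice, with differences of 1.50 ± 0.067 and 1.32 ± 0.043. Ces2e was also highest at the medium dose, with 6.66 FPKM at the low dose and 3.25 FPKM at the high dose (1.11), as was Sdr16c6, of the short-chain dehydrogenase family (1.14).

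Several genes were lower at the medium dose than at both other doses. Acsm5, a medium-chain acyl-CoA synthetase, averaged 18.6 ± 0.142 FPKM in the obese control, 39.5 ± 1.18 FPKM at the low dose, 18.6 ± 0.103 FPKM at the medium dose and 74.8 ± 0.758 FPKM at the high dose. Both outer doses thus had more Acsm5 than the obese control while the medium-dose values overlapped it, a difference from the other doses of -1.50 ± 0.022. Socs2 averaged 25.2 ± 0.424, 13.9 ± 0.9798, 7.002 ± 0.6697 and 20.99 ± 1.86 FPKM in the same order, and Abhd3 13.2 ± 0.714, 7.41 ± 0.934, 2.24 ± 0.0863 and 8.12 ± 0.672 FPKM. Both were below the obese control at every dose and furthest below at the medium dose, at -1.18 ± 0.064 and -1.43 ± 0.064 from the other doses. Zbtb16 (-1.38) and the thyroxine-binding globulin gene Serpina7 (-1.13) were lower by the same contrast. Scd was higher at the medium dose than at both other doses, where it lay below the obese control. It averaged 244 ± 1.099 FPKM in the obese control, 109 ± 2.33 FPKM at the low dose, 272 ± 3.16 FPKM at the medium dose and 170.4 ± 3.98 FPKM at the high dose. The difference from the other doses was 0.99 ± 0.018.

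**Figure D5:**
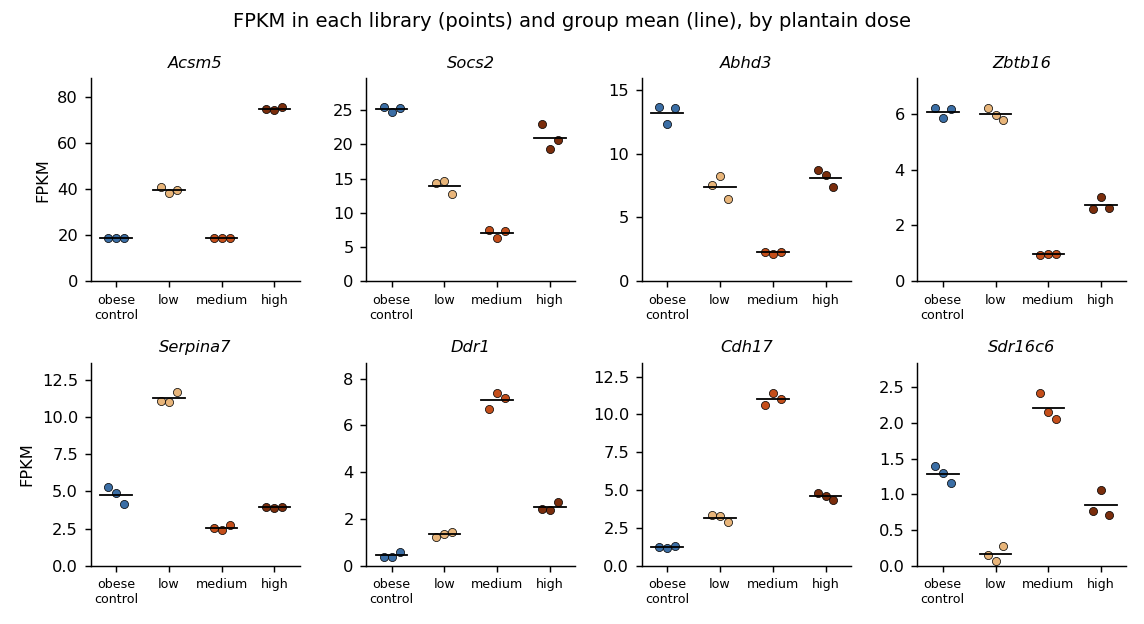
Each panel gives the FPKM of a gene in each library (points) and the group mean (line) for the obese control and the low, medium and high doses, from left to right, with the vertical axis from 0. Acsm5 is high at the low and high doses only, Socs2, Abhd3, Zbtb16 and Serpina7 are lowest at the medium dose, and Ddr1, Cdh17 and Sdr16c6 are highest there.

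Several lists moved with this contrast, in which 8.26% of all genes tested were higher and 9.28% lower. Fatty acid synthesis genes were higher at the medium dose than at the mean of the other doses in 16 of 23 cases and lower in 3, and for 14 of those that were higher every medium-dose value lay above all 6 values of the other doses (4.59% of all genes tested). Mitochondrial genome transcripts were higher in 9 of 13, but 0 of the 13 lay above both doses. Mitochondrial reads were 6.73 to 7.2995% at the low dose, 6.26 to 6.95% at the medium dose and 4.59 to 4.7029% at the high dose, so the medium dose overlapped the low dose and exceeded the high dose. Acute phase genes were lower in 18 of 23 cases and higher in 1, and 13 of the 18 lay below both doses without overlap (4.95% of all genes tested). Kupffer cell markers were lower in 13 of 16 and higher in 1, but 2 of the 13 lay below both doses without overlap (4.95% of all genes tested). The summed Kupffer cell markers came to 475.7 to 485.5 FPKM at the low dose, 330.4 to 340.5 FPKM at the medium dose and 338.1 to 342.6 FPKM at the high dose. The medium-dose and high-dose sums overlapped. Of the 22 ER chaperones 2 were higher, 4 were lower and 16 did not pass, while 17.5% of all genes tested differed. Hspa5 averaged 211 ± 1.94 FPKM at the low dose, 188 ± 3.34 FPKM at the medium dose and 186 ± 1.44 FPKM at the high dose, against 389.6 ± 0.7703 FPKM in the obese control.

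Set against healthy rats given water, 5412 of 11945 genes differed in medium-dose livers (45.3%), 2517 higher (21.1%) and 2895 lower (24.2%), and for 53.3% the groups did not overlap. Ces2e (3.40) and Ddr1 (1.92) were again far higher, so that their medium-dose levels lay outside both controls. Ltc4s, leukotriene C4 synthase, had 47.1, 45.3 and 47.5 FPKM in medium-dose livers, against 8.28, 6.27 and 9.29 FPKM in healthy control livers (2.43 ± 0.11), and Crot was higher by 1.93 ± 0.032. Pnpla3, a lipid droplet acyl hydrolase induced by lipogenesis, had 0.719, 0.748 and 0.611 FPKM in medium-dose livers, against 11.5, 10.9 and 12.7 FPKM in healthy control livers (-2.90 ± 0.094). Lpin1 (-2.77), the methyltransferase Inmt (-2.94) and the potassium channel Kcnj15 (-2.94) were lower to a like extent. These 8 genes were picked among genes whose values did not overlap between groups, so their lack of overlap is not a result.

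Several genes that rose or fell against the obese control differed from the healthy level, some lying between the obese and healthy controls and others outside both. Fasn averaged 8.81 ± 0.751 FPKM in medium-dose livers and 39.4 ± 0.4403 FPKM in healthy control livers, against 5.36 ± 0.273 FPKM in the obese control. Cholesterol genes were lower in the medium dose than in the healthy control in 25 of 27 cases, and glucose and insulin genes in 17 of 23. Endothelial markers were higher than in the healthy control in 15 of 16 cases and Kupffer cell markers in 13 of 16. The 3 Kupffer cell markers that did not pass were Cd5l, Cd163 and Marco. Cd5l averaged 15.51 FPKM in medium-dose livers and 15.52 FPKM in healthy control livers. Chka, Lox, Creld2, Calr, COX1 and ATP6 also fell against the obese control and did not pass against the healthy control. Hspa5 averaged 188 ± 3.34 FPKM in medium-dose livers and 224 ± 1.104 FPKM in healthy control livers. With 389.6 FPKM in the obese control, its medium-dose level lay below both controls. Akr1c2 averaged 8.45 ± 0.528 FPKM in medium-dose livers and 4.98 ± 0.497 FPKM in healthy control livers, against 102.7 FPKM in the obese control. The comparisons with the obese control and with the healthy control share the medium-dose libraries, so they are not independent of each other.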

How the data were processed

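RNA from flash-frozen liver was made into NEBNext Ultra libraries, per the labels' protocols. CASAVA 1.7, Bowtie 0.12.2 and the mouse build mm8 stand in the submitters' processing notes, while the gene identifiers are those of rat. No source used here names the rat build or a strand setting, so coordinates are those of the file, and a gene and its antisense partner cannot be told apart. The authors deposited 1 table of FPKM. Multiplied by gene length, the values of each library were whole multiples of a single step (100% at a tolerance of 0.001), which gave the recovered reads.

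Values were taken as log2(FPKM + 1) and fitted with limma 3.58.1 in R 4.3.3 over 6 groups of 3 libraries with no covariate, with a mean-variance trend and Benjamini-Hochberg adjustment over the 11945 genes. limma-voom was run on the recovered reads as an alternative. An exact permutation test of 3 against 3 libraries could not go below p = 0.1, so none is given. A difference is medium dose minus the other group, on the log2(FPKM + 1) scale, which understates changes of low genes; errors are SE unless marked. Replicate libraries were distinct. The alternatives were other pseudocounts, filters, scalings and fits, a replicate block and leaving out each library. The genes named are the 12 largest rises and falls without overlap between groups, up to 5 members of each list by p, the 6 largest in each direction against the other doses, the 4 largest in each direction against the healthy control and the 8 most abundant. The largest differences of all 3 comparisons were picked among genes past the threshold without overlap, so for them the lack of overlap was a condition. Members of a count of 5 or fewer, the genes with a promoter shown, and Fasn, Scd, Srebf1, Cyp8b1, Nr0b2, Cry1, Nr1d1, Sdf2l1, Atf4 and Atf5 were chosen after their values were seen. Some genes that this rule names are not reported here. The comparison, the 31 gene lists and the tests were chosen with earlier results of these data known.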

Additional observations from a re-analysis of the deposited data

Results flagged for a closer look

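For 2096 genes the effect of the medium dose differed from the mean effect of the low and high doses, by limma's test of that contrast (adjusted p under 0.05). The genes named from it were picked among those with medium-dose values outside the range of the 6 other plantain libraries. Ddr1 was higher by 1.50, Cdh17 by 1.32, Sdr16c6 by 1.14 and Ces2e by 1.11 on the log2 scale. The short noncoding genes RF00085 (1.33) and RF00342 (1.30) were higher too, on low levels. Lower values were found for Acsm5 (-1.50), Abhd3 (-1.43), Zbtb16 (-1.38), Socs2 (-1.18) and Serpina7 (-1.13). A U6 small nuclear RNA gene, RF00026 (ENSRNOG00000054364), differed by -1.20, with an adjusted p of 0.00794, and lost its call without medium-dose replicate 3 (-0.86). Ddr1 had the same order of doses in each of its 3 libraries per group: no low-dose value reached the high-dose values, and no high-dose value reached the medium-dose values.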

How the results depend on the processing

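The number of genes changed against the obese control stayed within 1.5 times the reported one under every alternative run, between 3764 with a minimum of 5 FPKM and 5188 on TPM, but the 2404 that fell became 1440 on TPM. Leaving out 1 library at a time gave 4410 to 4666 changed genes against the obese control, 1649 to 1967 against the other doses and 4779 to 4998 against the healthy control.

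Replicate numbers did not pair the libraries: deviations of same-numbered medium-dose and obese control libraries correlated at -0.032, 0.032 and -0.021. With a replicate block 4945 genes changed against the obese control, 1995 against the other doses and 5326 against the healthy control.

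Of 218 differences given for named genes, 189 kept their direction and their call under every alternative run and 29 did not. With a fit of only the groups compared, the calls of Btg2, Ccng1, Col1a1, Cry1, Cyp2c23, Epcam, Gadd45a and RF00026 (ENSRNOG00000054364) were lost, at adjusted p between 0.0519 and 0.0992. Signs turned for genes with differences near 0: on TPM Canx was at 0.0574, Cyp2c23 at 0.0394 and Xbp1 at 0.0592, in limma-voom on the recovered reads Canx was at 0.0214, Cyp2c23 at 0.0033 and Xbp1 at 0.0221, and after quantile normalization Canx was at 0.0214, Ttr at 0.0665 and Xbp1 at 0.0386. The cause of these turns was not tested. Depth limits the genes under 1 FPKM, where 1 read on a gene of 1 kb was worth 0.0446 to 0.0512 FPKM in medium-dose libraries and 0.0424 to 0.0536 FPKM in obese control libraries.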
